A study of Mus musculus with 15 samples.

Results

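The contractile genes of smooth muscle and myofibroblasts were followed through 15 populations of mouse embryonic fibroblasts (MEFs). The genes are Acta2, Actg2, Myh11, Myl9, Tagln, Cnn1, Cald1, Tpm1, Tpm2 and Lmod1, chosen by name, with earlier results of these data known. Counts of these genes, or of the gene lists below, beside the share of all units are therefore descriptions. A table of 65522 transcription units held 18 units with 1 of these symbols, at least 1 for each of the 10 genes, and the unit with the highest mean level stood for each gene. All 10 passed the filter on low values in every comparison. The level is FPKM, a read density per length of transcript and per sequenced fragment, so that levels of different genes can be set side by side.

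The cells came from C57BL/6 mice, from individual embryos of day 13 to 14, and RNA was sequenced after poly(A) selection. CIZ1 is a protein of the nuclear matrix, and the CIZ1 null animals carried a gene trap downstream of exon 1 of Ciz1 in every cell. Primary populations were taken before passage 5, and culture-adapted lines were the fast-growing populations present at about passage 20. The groups were 3 WT primary populations (embryos E14.4, E13.1, E13.8), 3 WT adapted lines from the same 3 embryos, 3 CIZ1 null primary populations (E14.2, E13.15 and E13.17) and 3 CIZ1 null adapted lines, again from the same 3 embryos. Values of single samples are given in this order of embryos throughout. By the study's figure legends E14.2 was at the same passage as the WT primary populations, and E13.15 and E13.17 were at an earlier passage. According to the study's list of lines, the E13.17 cells also carried a doxycycline-inducible GFP-CIZ1 transgene, which was not induced in that primary population. A further untreated transgenic CIZ1 null population is S13, and the transgenic CIZ1 null populations S14 and S15 received doxycycline at 5 to 10 µg/ml. The study's figure legend places the treated samples a day after induction. The study describes 2 transgenic populations, each with and without doxycycline, and the labels do not say which treated sample belongs to which untreated one. The 4 transgenic samples are thus not 4 separate embryos, and the embryos of S13, S14 and S15 were not used here. All were grown in serum-containing medium and harvested at 80% confluence.

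Smooth muscle cells and myofibroblasts generate force when myosin pulls on filaments of smooth muscle actin. Fibroblasts that take on this program in wounds, in fibrosis or on stiff plastic are called myofibroblasts, and alpha smooth muscle actin is their usual marker. The program is known to be switched on by transforming growth factor beta (TGF-beta) and by serum response factor (SRF), which binds a DNA element called the CArG box together with myocardin or the myocardin-related factors MKL1 and MKL2.

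Because these genes share a known regulator, the RefSeq promoters (GRCm38.p6, 250 bases before to 50 after the start site) were searched on both strands for the CArG box and for a looser form, CCNNNNNNGG with at least 5 of the 6 inner bases A or T. Of the 10 genes 7 were in the table, with 8 windows. Tagln, Actg2 and Myh11 were not among them. Myl9 held 1 CArG box and 1 looser form, Acta2 held 2 looser forms, and the windows of the other 5 genes held neither. Among 32851 windows of all genes 1.63% held a CArG box and 9.98% the looser form. The 200 bases before the start sites of Acta2 (chr19:34255374-34255573, minus strand) and Myl9 (chr2:156775264-156775463, plus strand) are shown 5′ to 3′, since they hold the only matches, which are in capitals.
Acta2: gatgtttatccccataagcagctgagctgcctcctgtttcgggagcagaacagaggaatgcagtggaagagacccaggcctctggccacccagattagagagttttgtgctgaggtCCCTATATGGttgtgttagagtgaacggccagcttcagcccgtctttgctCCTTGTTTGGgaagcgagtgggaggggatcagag
Myl9: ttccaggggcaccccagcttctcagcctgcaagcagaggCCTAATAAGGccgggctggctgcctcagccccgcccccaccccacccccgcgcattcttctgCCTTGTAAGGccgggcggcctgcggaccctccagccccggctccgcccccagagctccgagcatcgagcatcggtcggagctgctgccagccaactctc
In Acta2 the matches began 84 and 34 bases before the start site. In Myl9 the CArG box began 161 bases before it and the looser form 99 bases before it. A match describes the letters of the window only.

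The libraries differed in depth, and the labels were checked on Ciz1. Relative to the WT primary sample E14.4, depth recovered from the spacing of low FPKM values ran from 0.485 in S13 to 1.63 in the WT primary sample E13.1, with 0.624 to 1.19 in WT adapted and 0.543 to 0.901 in CIZ1 null adapted lines. Ciz1 stood at 18.7 to 25 FPKM in the 6 WT samples, at 0.0546 to 0.724 in the 7 CIZ1 null samples without doxycycline, and at 296 and 191 in S14 and S15. The fibroblast genes Col1a1 and Vim stood at 139 FPKM or more in every sample, whereas Fap, singled out after its values were seen, was under 1 FPKM in all 3 WT adapted lines. The 12 fibroblast markers summed to 10325 to 11120 FPKM in WT primary and 10379 to 10605 in CIZ1 null primary cells, but to 3094 to 6802 and 2585 to 6423 in the adapted lines. Endothelial markers summed to 3.87 FPKM or less in every sample.

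In WT primary MEFs the contractile genes were among the most abundant transcripts. Acta2 had the highest FPKM of all units in each of the 3 WT primary samples, and the 10 genes together made up 2.11% to 2.42% of all FPKM. The share was 1.16% to 1.92% in CIZ1 null primary cells, 0.492% to 1.28% in WT adapted lines and 0.224% to 1.52% in CIZ1 null adapted lines, where the rank of Acta2 ran from 5 in E13.15 to 212 in E14.2. In WT primary cells the order by mean FPKM was Acta2 (5543 ± 611, SD, n = 3), Tagln (2726 ± 525), Tpm1 (2453 ± 477), Tpm2 (1076 ± 50.2), Myl9 (985 ± 38.8), Cald1 (971 ± 197), Actg2 (579.6 ± 65.6), Cnn1 (267 ± 25.1), Lmod1 (45.2 ± 12.8) and Myh11 (15.3 ± 2.02). The ranges of Tagln and Tpm1 overlapped, as did those of Tpm2, Myl9 and Cald1. Myh11, the smooth muscle myosin heavy chain and the most restricted smooth muscle marker of the set, was thus present at a small fraction of the level of Acta2. Of 9 markers taken to define smooth muscle, all were detected in WT primary cells, summing to 375 to 482 FPKM against 52.7 to 347 in WT adapted lines. The markers include Cnn1, Lmod1 and Myh11, so this sum is not separate from the 10 genes. Cnn1 alone stood at 240 to 290 FPKM in WT primary cells and at 293 in adapted E13.8. Skeletal muscle markers summed to 1.58 to 10.4 FPKM in WT primary cells, with Myod1, Myf5 and Ckm at 0. In bulk samples, fewer cells that express these genes and less RNA of them per cell cannot be told apart.

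**Figure D1:**
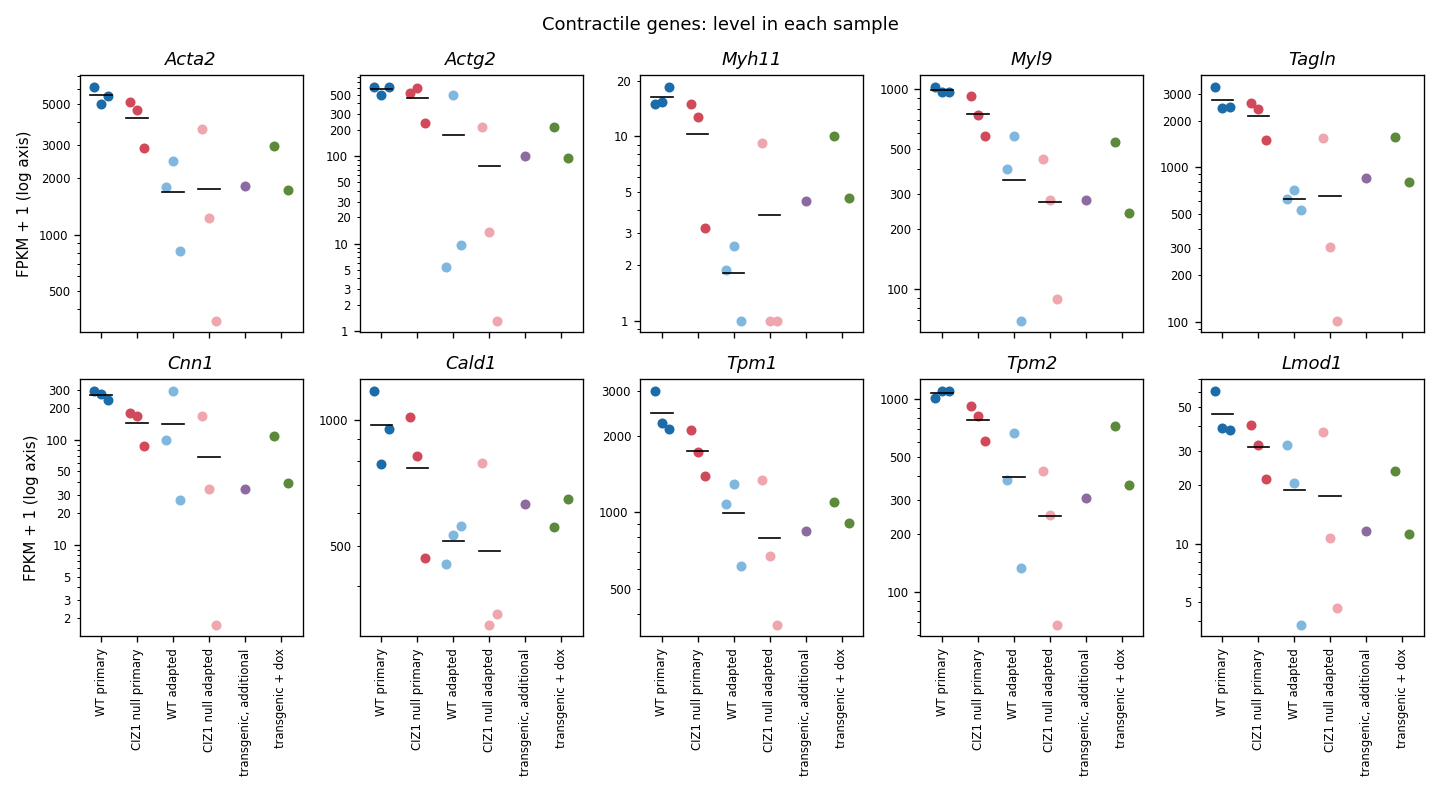
FPKM + 1 on a log axis for each of the 10 contractile genes, 1 point per sample and a black line at the mean of each group of 3; the E13.17 transgenic sample is drawn among the CIZ1 null primary cells and S13 on its own. The adapted lines sit below most primary samples and spread widely, from 347 to 3677 FPKM for Acta2 among CIZ1 null adapted lines.

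The first question was what culture adaptation does to these genes in WT cells. All 10 had a lower mean log2(FPKM + 1) in WT adapted lines than in WT primary cells (53.1% of all units did), by 0.91 (Cald1) to 4.29 (Actg2) on that scale, with a median of -1.79 against -0.05 over all 19919 units tested. Of the 10, 5 fell with an adjusted p under 0.05 (limma, Benjamini-Hochberg over all units): Acta2, Tagln, Cald1, Tpm1 and Myh11. Over all units 6.68% were called lower and 9.55% in either direction. For 9 genes, all but Cnn1, the 3 adapted lines lay below the 3 primary samples without overlap, which held for 21.4% of all units. At an unadjusted p under 0.05 there were 8 of the 10 genes, against 30.6% of all units.

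Both smooth muscle actins were lower. Acta2 (chr19:34241090-34255590, minus strand, GRCm38), which encodes alpha smooth muscle actin, stood at 6182, 4963 and 5484 FPKM in WT primary cells and at 814, 1797 and 2480.0 in the adapted lines of the same embryos. The groups did not overlap, and adapted E14.4 was lowest. Acta2 fell by 1.84 ± 0.395 (SE) on the log2 scale (limma, adjusted p = 0.0396). Actg2 (chr6:83512905-83536265, minus strand), gamma smooth muscle actin of gut and bladder muscle, went from 623, 504 and 612 FPKM to 8.51, 4.34 and 502. The adapted E13.8 line thus remained near the primary level while the other adapted lines were at 1.37% and 0.861% of their own primary population, and the log2 difference of -4.29 ± 1.62 did not pass the test (limma, adjusted p = 0.132).

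The myosin genes differed in level and in how even the change was. Myh11 (chr16:14194535-14291372, minus strand) stood at 13.9, 14.3 and 17.6 FPKM in WT primary cells and at 0, 0.892 and 1.53 in the adapted lines. It fell by 3.26 ± 0.353 on the log2 scale (limma, adjusted p = 0.0106), in all 3 embryos. Myl9 (chr2:156775420-156781658, plus strand), the regulatory light chain whose phosphorylation starts contraction, went from 1029.6, 962 and 962 FPKM to 68.5, 399 and 584. Here too the E14.4 line was lowest, and the difference of -1.96 ± 0.750 had an adjusted p of 0.137 (limma).

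The actin-binding proteins were lower in mean as well, with Tagln lower in every WT embryo. Tagln (chr9:45929619-45936058, minus strand) encodes transgelin or SM22-alpha, an early marker of smooth muscle, and went from 3332, 2405 and 2439 FPKM to 530.4, 620.0 and 710. The fall of 2.13 ± 0.191 on the log2 scale (limma, adjusted p = 0.00689) was the only one of the 5 called that held when any single WT sample was left out. Of 12 alternatives in processing it was not called in 1, a single fit of all groups (limma, adjusted p = 0.0788). Reads of Tagln are uncertain, however: its exons overlap those of Pcsk7 and of the antisense gene Gm48529 on the other strand, 58.3% of its distinct 50-base words occur in other annotated transcripts, and the unit of Pcsk7, at 606 to 908 FPKM in WT primary and 99.6 to 141 in WT adapted cells, moved with it.

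Cnn1 (chr9:22099216-22109630, plus strand), calponin 1, which restrains the actomyosin ATPase, was the only gene with overlapping groups in its main unit. The groups of its second unit did not overlap (42.8 to 56.8 against 3.35 to 40.0 FPKM). The main unit stood at 290, 270 and 240 FPKM in WT primary cells and at 25.9, 99.4 and 293 in the adapted lines, so that adapted E13.8 was above its own primary population. The difference was -1.53 ± 0.793 (limma, adjusted p = 0.244). Cald1 (chr6:34598500-34775473, plus strand), caldesmon, which blocks myosin on thin filaments, had the smallest change: 1177, 784 and 953 FPKM became 558, 449 and 528, a fall of 0.91 ± 0.192 on the log2 scale (limma, adjusted p = 0.0387).

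The thin filament genes followed. Tpm1 (chr9:67022590-67049406, minus strand) and Tpm2 (chr4:43514711-43523765, minus strand) encode tropomyosins, the coiled coils that lie along actin. Tpm1 went from 3000, 2238 and 2122 FPKM to 614, 1079 and 1293 and fell by 1.35 ± 0.303 on the log2 scale (limma, adjusted p = 0.0435). Tpm2 went from 1019, 1110.0 and 1101 FPKM to 133, 378 and 667, a difference of -1.73 ± 0.546 (limma, adjusted p = 0.0908). Lmod1 (chr1:135324807-135368065, plus strand), leiomodin 1, which nucleates actin filaments in smooth muscle, stood at 60.0, 38.1 and 37.4 FPKM and then at 2.83, 31.0 and 19.4, a difference of -1.73 ± 0.761 (limma, adjusted p = 0.181).

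Primary and adapted cells came from the same embryos, and in a fit with a term for each embryo (replicate block) 2 of the 10 genes remained called in WT cells, Tagln (adjusted p = 0.0352) and Myh11 (adjusted p = 0.0302). The count was 1 without any 1 of the 3 WT primary samples (Tagln), 2 without adapted E13.1 (Tagln and Myh11) and 6 or 7 without adapted E13.8 or E14.4. Over all units 1330 were called lower in the main fit, 405 with the block and 55 to 66 without a WT primary sample. Without adapted E13.1, E13.8 and E14.4 these were 1325, 996 and 1951 units.

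The same question in CIZ1 null cells gave differences of like size and a wider spread. All 10 genes, and 52.3% of all units, had a lower mean log2(FPKM + 1) in the adapted lines, with a median log2 difference of -1.90 against -0.04 over all 20044 units, and from -0.72 (Cald1) to -4.75 (Actg2). None was called by limma (adjusted p from 0.111 for Tpm2 to 0.319 for Cald1), while 4.86% of all units were and 3.47% were called lower. At an unadjusted p under 0.05 there were 5 of 10, against 29.3% of all units. For 4 genes, Myl9, Actg2, Tpm1 and Tpm2, the groups did not overlap, which held for 19.6% of all units.

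The spread came from the 3 adapted lines. Acta2 stood at 5108, 4634 and 2890 FPKM in the primary samples E14.2, E13.15 and E13.17 and at 347, 3677 and 1233 in their adapted lines. Adapted E13.15 was within the primary range and adapted E14.2 was far below it. Tagln went from 2604, 2375 and 1493 FPKM to 100.4, 1545 and 305, and Actg2 from 527, 599.9 and 237 to 0.311, 216 and 12.6.

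Cnn1 also spread widely. It stood at 178, 167 and 85.6 FPKM in the CIZ1 null primary samples and at 0.742, 167 and 33.0 in the adapted lines, so that it was nearly lost in E14.2 and at 100.2% of its primary level in E13.15. Myh11 was listed at 0 in adapted E14.2 and E13.17 and at 8.24 FPKM in adapted E13.15, against 13.9, 11.7 and 2.18 in the primary samples E14.2, E13.15 and E13.17. Lmod1 was 36.3 FPKM in adapted E13.15, above the 30.9 of its primary population, and 3.67 and 9.72 in adapted E14.2 and E13.17. Without adapted E13.15, 8 of the 10 genes were called lower (all but Cnn1 and Cald1), whereas leaving out any other sample of this comparison gave 0. The calls over the whole series moved too. With all samples 695 of 20044 units were called lower, without adapted E13.15 1978 of 20043, and without another sample 18 to 545.

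Across both genotypes, with genotype as a term and 6 primary against 6 adapted populations, 8 of 10 genes fell (limma, Benjamini-Hochberg), and all 10 had a lower mean log2(FPKM + 1), as did 53.1% of all units. Over all 20046 units 19.1% were called lower and 33.3% in either direction. The largest change was that of Actg2, by 4.52 ± 1.24 on the log2 scale (adjusted p = 0.0162). Myh11 fell by 2.64 ± 0.592 (adjusted p = 0.00602), Tagln by 2.33 ± 0.498 (adjusted p = 0.00469), Tpm2 by 1.86 ± 0.445 (adjusted p = 0.0083) and Myl9 by 1.84 ± 0.498 (adjusted p = 0.0152), all by limma. Acta2 fell by 1.83 ± 0.471 (limma, adjusted p = 0.0119), Tpm1 by 1.33 ± 0.288 (limma, adjusted p = 0.00498) and Cald1 by 0.82 ± 0.248 (limma, adjusted p = 0.0256). Cnn1 at -2.10 ± 0.929 and Lmod1 at -1.51 ± 0.556 did not pass in their main units (limma, adjusted p = 0.102 and 0.055). The second unit of Cnn1 did pass, at -2.09 ± 0.653 (limma, adjusted p = 0.0288, and 0.0337 in the fit blocked by embryo). The other units of Lmod1 did not (limma, adjusted p = 0.0705 and 0.0559). Tpm1 was the only 1 of the 10 with no overlap between the 6 primary and the 6 adapted samples, which held for 10.2% of all units. In the fit blocked by embryo the same 8 genes were called.

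**Figure D2:**
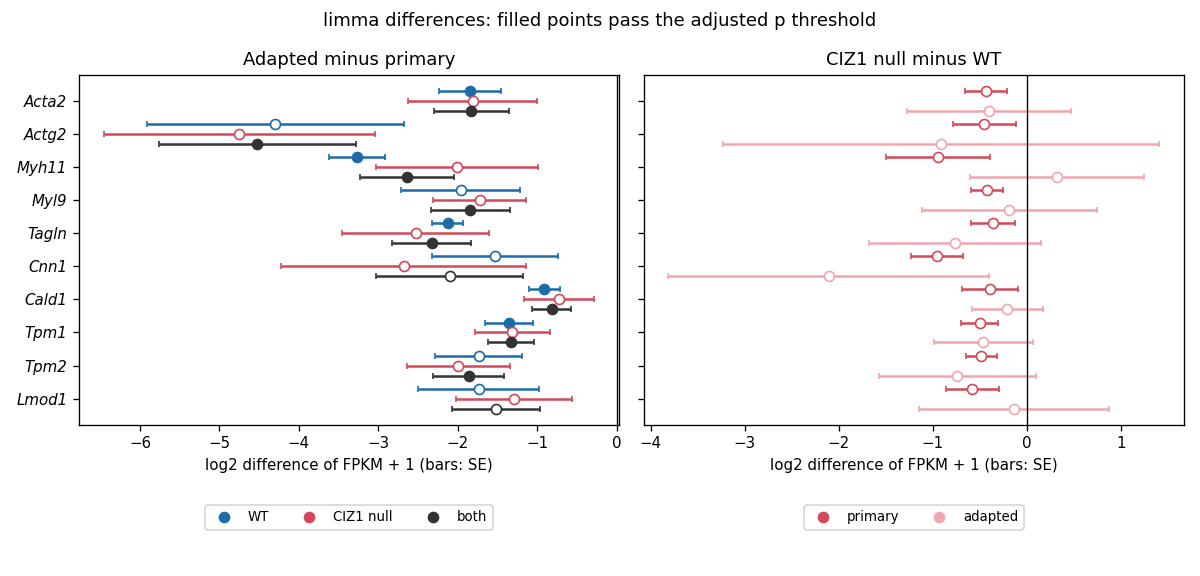
Log2 differences of FPKM + 1 with standard errors from limma, adapted minus primary on the left and CIZ1 null minus WT on the right; filled points passed the adjusted p threshold of 0.05. The differences on adaptation lie below 0 for all genes, and those on loss of CIZ1 have no filled point.

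Seen embryo by embryo in the main units, 8 genes were lower in the adapted line than in its own primary population in all 6 embryos, the exceptions being Cnn1 and Lmod1, and 18.5% of all units did the same. The second units of Cald1 and Tpm1 were lower except in E13.15, where they stood at 149.8% and 100.3% of primary. That of Cnn1 was lower in all 6 embryos, at 0.723% to 93.5% of primary. The second unit of Tpm2, described below, was higher in most adapted lines. How far the genes went down differed between embryos. The median over the 10 genes of adapted as a percent of primary FPKM was 7.01% in E14.2 and 11% in E14.4, then 36.5% in E13.1, 42.0% in E13.17, 58.0% in E13.8 and 74.4% in E13.15. E14.4 is WT and E14.2 is CIZ1 null, and each genotype thus held a line with strong loss and a line that kept over 50% of the level in the median. Over all units the median log2 difference within an embryo lay between -0.05 and 0.00, with 50.3% to 52.7% of units lower. Cald1 stood at 33.5% to 96.3% of primary, and Actg2 spanned 0.059% to 82.1%.

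**Figure D3:**
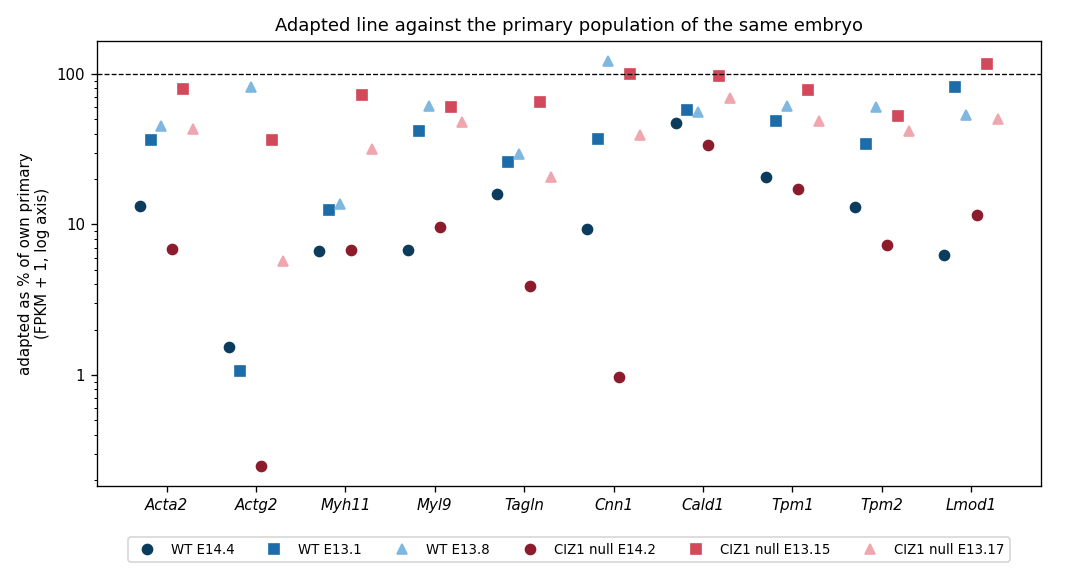
Adapted line as a percent of the primary population of the same embryo, computed on FPKM + 1 and drawn on a log axis, for each gene and embryo; the dashed line is no change. E14.4 and E14.2 (circles) are lowest for most genes, and Cnn1 in E13.8 and E13.15 and Lmod1 in E13.15 lie above the line.

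The genes varied together. Over the 15 samples the 45 pairs of genes had Pearson correlations of log2(FPKM + 1) between 0.648 and 0.970, with a median of 0.870. Each gene's correlation with the mean of the other 9 was highest for Acta2 (0.993) and lowest for Cald1 (0.810). These points share libraries and fall into groups, so the values are descriptions. The mean of the 10 genes, each centred on its own mean over the samples, ran from 1.52 in WT primary E14.4 to -3.02 in CIZ1 null adapted E14.2 on the log2 scale.

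**Figure D4:**
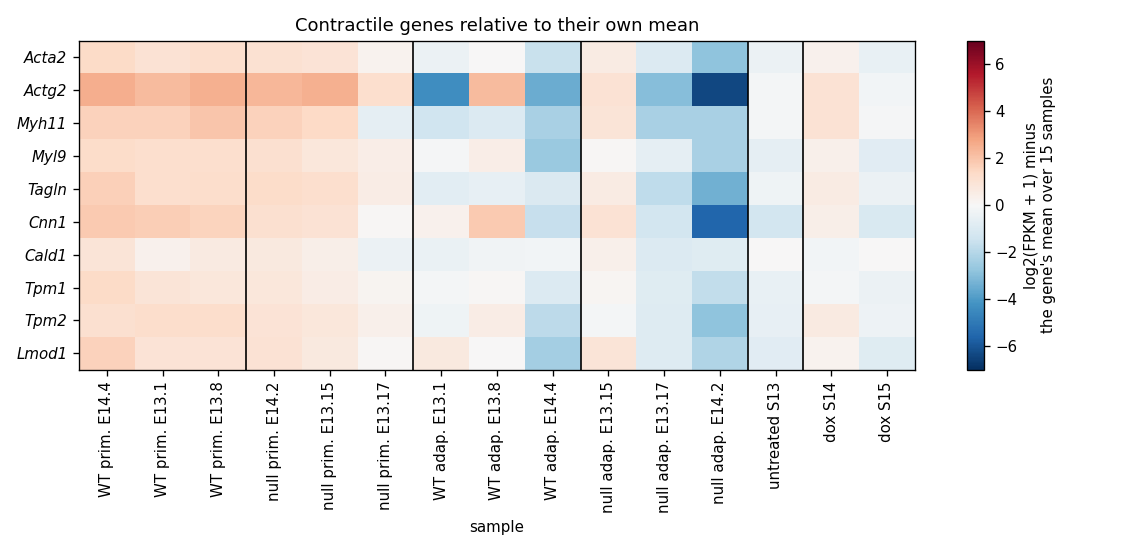
Each gene's log2(FPKM + 1) minus its own mean over the 15 samples, red above and blue below, with samples in columns by group. The WT primary samples and the CIZ1 null primary samples E14.2 and E13.15 are red for nearly all genes, adapted E14.2, E14.4 and E13.17 are blue for nearly all of them, and S13 and S15 average -0.48 and -0.47.

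The units whose profile was most like that mean, among 11650 with a mean of at least 5 FPKM and without the contractile genes, were Mical2 (Pearson r = 0.965), Tnk2 (0.964), Wdr1 (0.963), Bok (0.960) and a second unit of Mical2 (0.958), over 15 samples. MICAL2 oxidises actin, WDR1 helps cofilin to take actin filaments apart, TNK2 is a tyrosine kinase and BOK a BCL-2 family protein. Mical2 stood at 30.7 to 43.5 FPKM in WT primary cells, 8.22 to 13.9 in WT adapted, 16.5 to 31.7 in CIZ1 null primary and 3.08 to 27.6 in CIZ1 null adapted cells.

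The second question was whether loss of CIZ1 alters these genes. In primary cells all 10, against 50% of all units, had a lower mean log2(FPKM + 1) in CIZ1 null than in WT cells, with a median difference of -0.47 against 0.00 over 19566 units, but none was called (limma, adjusted p from 0.689 to 0.822). Only 0.00511% of all units were called, a single unit, which was Ciz1. The study, with Cuffdiff on the reads of these populations, reports a far larger set of affected units. The lack of calls here is thus not evidence of no change. At an unadjusted p under 0.05 there were 4 of the 10 genes against 6.26% of all units: Cnn1, Tpm2, Tpm1 and Myl9. For 5 genes, Cnn1, Myl9, Tpm1, Tpm2 and Myh11, all 3 CIZ1 null samples lay below all 3 WT samples, which held for 5.72% of all units.

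Cnn1 had the largest difference, -0.95 ± 0.277 on the log2 scale (limma, unadjusted p = 0.0109, adjusted p = 0.689), from its 240 to 290 FPKM in WT to 85.6 to 178 in CIZ1 null primary cells. Tpm2 stood at 1019 to 1110.0 against 608 to 921 FPKM. The transgenic E13.17 sample was the lowest of the 3 CIZ1 null primary samples for all 10 genes. E13.17 and E13.15 were at an earlier passage than the WT samples, and the part of passage was not tested. Without E13.17 the median difference was -0.24, with 2 of the 10 genes at an unadjusted p under 0.05. With S13 added to the CIZ1 null primary cells the median was -0.79 and no gene was called.

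In adapted lines 9 of 10 genes, and 46.1% of all units, had a lower mean log2(FPKM + 1) in CIZ1 null than in WT cells, with differences from -2.11 (Cnn1) to 0.32 (Myh11) and standard errors of 0.378 to 2.32. On the FPKM scale the direction was not the same for Acta2, with means of 1697 in WT and 1753 in CIZ1 null adapted lines, and for Tagln, with 620.1 and 650.3. No gene was called, and none had an unadjusted p under 0.05 (limma, adjusted p from 0.998 to 0.999), with 0.00501% of all units called. The groups overlapped for all 10, whereas 3.74% of all units were lower without overlap. The interaction, which asks whether adaptation differs between WT and CIZ1 null cells, called 0 of the 10 genes, as it did 0% of all units (limma, adjusted p of 0.996 or more, and 0 genes at an unadjusted p under 0.05). Its standard errors ran from 0.516 (Cald1) to 2.60 (Actg2), so that differences between the genotypes of that size were not detectable here.

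The third question was whether the inducible transgene moves these genes. In the untreated transgenic samples E13.17 and S13, Acta2 stood at 2890 and 1813 FPKM, and in the doxycycline-treated S14 and S15 at 2966 and 1722. The 10 genes summed to 7774 and 4860 FPKM in the untreated and to 7806 and 4819 in the treated samples, while Ciz1 rose from 0.171 and 0.514 to 296 and 191 FPKM. No contractile gene was called (limma, unpaired, 2 against 2 samples, adjusted p of 1.0, 0 at an unadjusted p under 0.05), 5 of 10 had a lower mean log2(FPKM + 1) (51.1% of all units did), and the log2 differences ran from -0.15 (Myl9) to 0.85 (Myh11). Among all 19768 units 0.0101% were called. Myh11, at 2.18 and 3.43 FPKM untreated and 8.97 and 3.60 treated, was the only gene whose groups did not overlap, higher on treatment, as for 8.92% of all units. The second unit of Myh11 overlapped, at 2.47 and 2.00 FPKM untreated and 5.06 and 1.65 treated (log2 difference 0.31 ± 0.467). All 4 transgenic primary samples lay below the lowest WT primary sample for every one of the 10 genes, as for 9.31% of all units. By the study's figure legends the transgenic populations were at earlier passages than the WT primary ones. The transgene, the embryos, the passage and the loss of CIZ1 cannot be told apart in that comparison.

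The genes that build and anchor the contractile apparatus beyond the 10, such as other actins, myosins, integrins and focal adhesion proteins, made up a list of 67, of which 66 had a unit. In WT cells 19 of 56 tested fell on adaptation and 0 rose (median log2 -1.11), where 6.68% of all units were called lower. In CIZ1 null cells 5 of 57 fell and 0 rose (median -0.70), against 3.47% of all units called lower, and over both genotypes 33 of 57 fell and 0 rose (median -0.95), against 19.1%. The WT count was 0 without any 1 of the WT primary samples, and the CIZ1 null count was 23 when adapted E13.15 was left out, 3 when the E13.17 line was, and 0 when the E14.2 line or any 1 of the primary samples was. Over all units, 55 to 66 were then called lower in WT cells. In CIZ1 null cells 1978, 545 and 18 to 27 were, in the same order.

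Des, the muscle intermediate filament desmin, went from 7.43 to 13.6 FPKM in WT primary to 0 to 0.687 in WT adapted cells and from 6.14 to 10.7 to 0 to 0.550 in CIZ1 null cells. It fell by 3.10 ± 0.326 on the log2 scale in WT (limma, adjusted p = 0.00992) and by 2.88 ± 0.276 in CIZ1 null cells (limma, adjusted p = 0.0189). In WT cells Mylk, the myosin light chain kinase that acts on MYL9, fell by 3.09 ± 0.554 (limma, adjusted p = 0.0266). Ppp1r14a, an inhibitor of myosin phosphatase, fell by 2.53 ± 0.588 (limma, adjusted p = 0.0469), and Itga5, the fibronectin receptor subunit alpha 5, by 2.44 ± 0.394 (limma, adjusted p = 0.0214). In CIZ1 null cells Cav1, the caveolar coat protein caveolin 1, fell by 2.36 ± 0.468 (limma, adjusted p = 0.0459). The actin-associated adaptors Pdlim7 and Fblim1 fell there by 1.70 ± 0.290 and 1.34 ± 0.216 (limma, adjusted p = 0.035 and 0.0311).

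The transcriptional control list held 32 genes, of which 29 had a unit. In WT cells 5 of 24 fell and 0 rose, in CIZ1 null cells 0 of 23 were called, and over both genotypes 7 of 23 fell and 2 rose, beside 6.68%, 3.47% and 19.1% of all units called lower. The WT count was 0 without any 1 of the WT primary samples, when 55 to 66 of all units were called lower. Srf stood at 50.6, 33.8 and 29.4 FPKM in WT primary cells and at 12.7, 17.9 and 20.6 in the adapted lines. In CIZ1 null cells it was 37.4, 36.2 and 27.7 FPKM in primary cells and then 10.8, 24.2 and 13.7. It was lower in all 6 adapted lines than in all 6 primary samples and fell by 1.09 ± 0.208 over both genotypes (limma, adjusted p = 0.00264), with adjusted p of 0.055 in WT and 0.0884 in CIZ1 null cells alone.

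Of the SRF cofactors, Myocd, myocardin, was at 1.97 FPKM or less everywhere and at 0.0532 or less in the adapted lines. Mkl1 was between 18 and 26.4 FPKM in primary and 8.25 and 21.8 in adapted cells, and Mkl2 between 3.18 and 4.51 and between 2.39 and 4.22, and neither passed the test in any adaptation comparison. Jag1, a Notch ligand, fell by 3.24 ± 0.576 in WT cells (limma, adjusted p = 0.0265) and the LIM protein gene Fhl2 fell by 1.39 ± 0.240 (limma, adjusted p = 0.0248). Klf4, known to repress smooth muscle genes, fell as well, by 1.74 ± 0.277 (limma, adjusted p = 0.021), and the Notch target Hey1 by 1.38 ± 0.224 (limma, adjusted p = 0.0215). Over both genotypes Klf5, a growth-related factor of smooth muscle, fell by 1.45 ± 0.404 (limma, adjusted p = 0.0171), and the genes that rose were Gata6, by 0.90, and Pias1, by 0.82 (limma, adjusted p = 0.042 and 0.0233), both named after their values were seen. The count of 2 that rose ran from 0 to 2 over 19 alternatives.

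The TGF-beta list held 26 genes, 25 of them with a unit. In WT cells 5 of 24 fell and 1 rose, in CIZ1 null cells 1 fell and 1 rose, and over both genotypes 8 fell and 1 rose, beside the same 6.68%, 3.47% and 19.1% of all units called lower. Without any 1 of the WT primary samples 1 fell and 0 rose in WT cells, and without adapted E13.15 7 fell in CIZ1 null cells. Over all units 55 to 66 and 1978 were called lower in these fits. The ligand Tgfb1 went from 67.2, 37.7 and 44.3 FPKM in WT primary cells to 16.9, 8.89 and 10.0 in the adapted lines and fell by 1.98 ± 0.313 (limma, adjusted p = 0.0207). The matricellular gene Ctgf fell by 1.82 ± 0.383 (limma, adjusted p = 0.0383).

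In CIZ1 null cells the ligand Tgfb3 fell by 2.5 ± 0.392 (limma, adjusted p = 0.0296), whereas Tgfb1, at -1.08 ± 0.293, did not pass (limma, adjusted p = 0.0767). Tgfbr3, the co-receptor betaglycan, rose in both genotypes, by 1.86 ± 0.323 in WT and 1.90 ± 0.262 in CIZ1 null cells (limma, adjusted p = 0.025 and 0.025). Of the signalling receptors and SMADs, Tgfbr1, Tgfbr2, Smad3 and Smad7 were not called in any adaptation comparison, with Tgfbr2 at 22.9 to 34.5 FPKM in primary and 18.8 to 44.4 in adapted cells. Over both genotypes Tnc, tenascin C, fell by 2.94 ± 0.812 (limma, adjusted p = 0.0166). On loss of CIZ1, for the interaction and on doxycycline, none of the 3 lists held a called gene, adapted or primary.

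**Figure D5:**
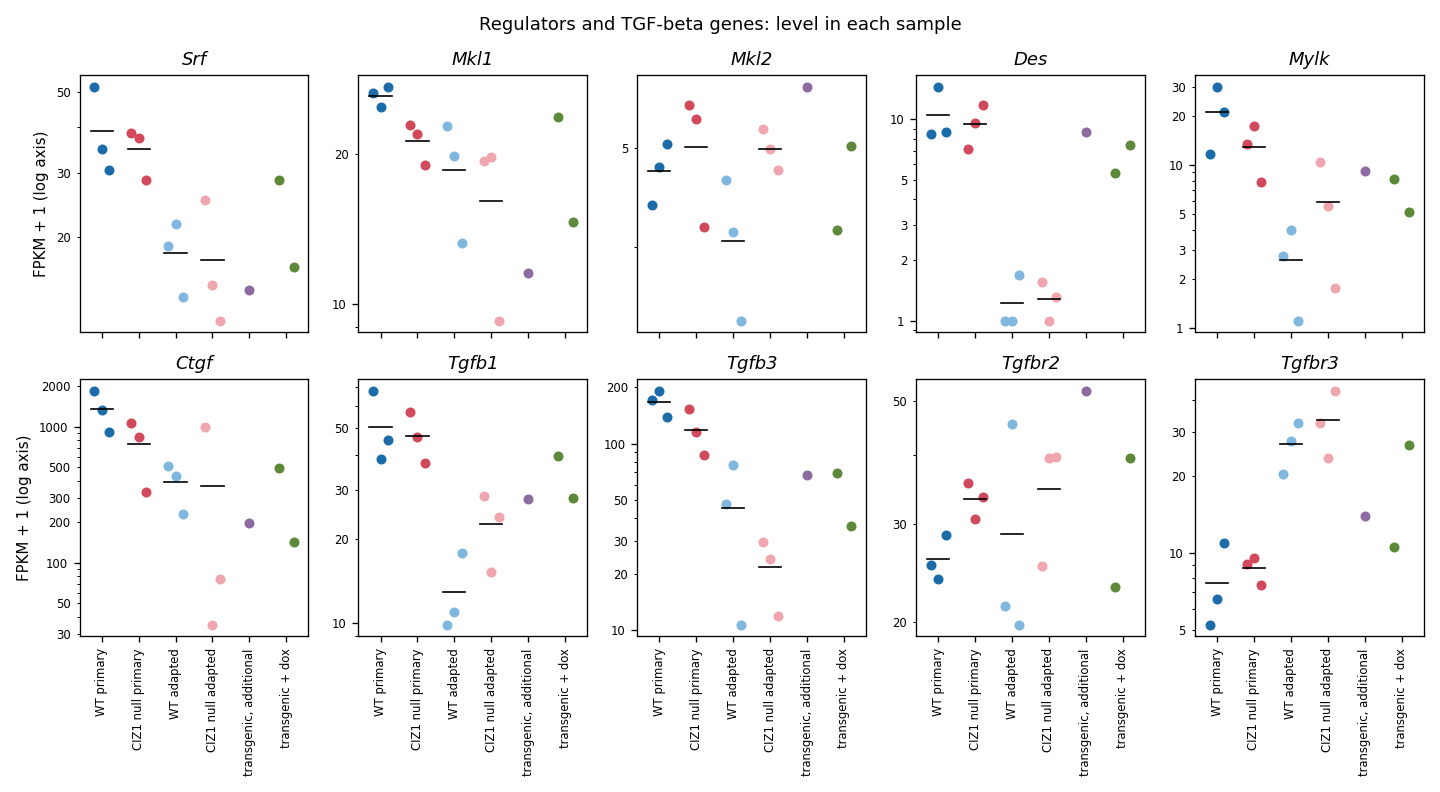
FPKM + 1 on a log axis for regulators, partners and TGF-beta genes, 1 point per sample and a black line at the mean of each group of 3. Srf, Tgfb1, Tgfb3 and Des are lower in adapted lines, Tgfbr3 is higher, and the points of Mkl2 and Tgfbr2 overlap between primary and adapted cells.

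Markers of other cells also moved with adaptation. Besides the fibroblast markers given above, macrophage and blood markers summed to 34.2 to 49.8 FPKM in WT primary and 4.37 to 8.20 in WT adapted cells, and to 36.1 to 58.4 and 7.81 to 11.5 in CIZ1 null cells. Pericyte markers summed to 94.4 to 159 and 7.90 to 54.6 FPKM in WT and to 82.2 to 131 and 3.96 to 17.2 in CIZ1 null cells, and epithelial markers to 28.2 to 31.4 and 0.793 to 11.7 FPKM in WT cells. Of the 12 fibroblast markers 1 fell and 0 rose in WT cells and 3 fell and 0 rose in CIZ1 null cells. Of the macrophage and blood markers 2 of 4 tested fell in WT and 2 of 5 in CIZ1 null cells, and 0 rose, while no epithelial marker was called in either. Of the pericyte markers 1 of 4 tested fell in WT cells and 1 rose, Rgs5, by 2.71 (limma, adjusted p = 0.0426, named after its values were seen), and in CIZ1 null cells 1 of 3 fell and 0 rose. Beside these counts, the share of all units called lower was 6.68% for WT adaptation and 3.47% for CIZ1 null adaptation. The share called in either direction was 9.55% for the former and 4.86% for the latter. The part of these markers in the differences of the contractile genes was not tested.

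Second units of the same genes, present for 7 of the 10, mostly followed the first. The second unit of Myh11 stood at 45.8% to 114% of the main unit with a correlation of 0.976 over 15 samples, and those of Cnn1, Myl9, Tpm1 and Lmod1 had correlations of 0.969 to 0.993. Tpm2 and Cald1 were less alike. The second unit of Tpm2, at 0.572% to 2.62% of the main unit, had a correlation of 0.780 and differed on adaptation by -0.29 in WT and -0.39 in CIZ1 null cells, neither of which was called (limma, adjusted p = 0.741 and 0.666). Unlike the main unit, it was higher in adapted E13.1, E13.8, E13.15 and E13.17, at 133% to 161% of primary. In E14.4 and E14.2 it was at 23.8% and 12.5%. The second unit of Cald1, at 32.4% to 66.4% of the main unit, differed on adaptation by -0.17 ± 0.179 in WT and -0.12 ± 0.361 in CIZ1 null cells on the log2 scale, neither of which was called (limma, adjusted p = 0.562 and 0.841). The ratio of the main to the second Cald1 unit was accordingly 2.51 to 3.09 in WT primary and 1.62 to 1.77 in WT adapted cells, and 1.97 to 2.83 and 1.51 to 1.71 in CIZ1 null cells, lower in each adapted line than in any primary sample of its genotype.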

How the data were processed

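RNA-seq of 15 populations of MEFs was analysed from the table of normalised FPKM that the authors deposited. According to their methods and the submitters' processing notes, reads were trimmed with cutadapt 1.8.3 and aligned with HISAT2 2.0.5 to GRCm38, transcripts were assembled and merged with Cufflinks, and FPKM per transcription unit were made with Cuffnorm. The deposited comparison table (mean FPKM, log2 fold changes, p-values and q-values of Cuffdiff 2.2.1 for 4 comparisons) was not used. No read counts were at hand, and relative depth was recovered from the spacing of low values (4578 units under 0.3 FPKM, 105 of 105 pairs of samples closing within 0.03 on the log2 scale).

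Groups came from the labels. The embryo of 12 samples was taken from the study's lists per line, whose values were identical to the deposited ones; the source name of the E13.17 primary sample reads S13. Primary and adapted samples of 1 embryo are paired by origin, and their deviations from the group means correlated at r = -0.02 to 0.21.

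Differences were tested with limma 3.58.1 (R 4.3.3, trended eBayes, two-sided) on log2(FPKM + 1), which understates changes of low genes, for units with a mean of at least 1 FPKM over the samples of the fit, with Benjamini-Hochberg adjustment over all units and a threshold of 0.05. The fits were checked on simulated data. Counts were recomputed with a pseudocount of 0.1, filters of 5 FPKM and none, quantile normalization, the embryo as a block, a single fit of all groups, other sets of CIZ1 null primary samples, and each sample left out. All contractile genes were named, with up to 4 called genes of each list per comparison by size of change, fixed regulators and the 5 most similar units; 1 gene of the TGF-beta list that the rule names is not reported here. The genes, lists and rules were chosen with earlier results of these data known. Gene spans are from GENCODE (GRCm38). The strand setting of the quantification is not given in the sources used here.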

Additional observations from a re-analysis of the deposited data

How the results depend on the processing

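The count of contractile genes called on adaptation of WT cells (5) was 2 with no filter on low values, 3 after quantile normalization, 2 with the embryo as a replicate block, 1 (Myh11) when all groups shared a single fit, and 1 to 7 when a sample was left out. It was 5 with a pseudocount of 0.1 and with a filter of 5 FPKM. Over all units 1330 were called lower in the main fit and 771 with no filter. Quantile normalization gave 1081, the block 405, the single fit 1788, and leaving out a sample 55 to 1951. In CIZ1 null cells the count of 0 became 1 (Tagln) in the single fit and ran from 0 to 8 when a sample was left out, and the other alternatives, the block included, gave 0. Over all units 695 were called lower there in the main fit and 1739 in the single fit. With the block 5 were, and 18 to 1978 when a sample was left out. Over both genotypes the count of 8 stayed between 7 and 10 in all 19 alternatives, 8 with the block, and Acta2, Tagln, Myl9, Actg2, Tpm1, Tpm2 and Myh11 were called in each. The cause of these shifts was not tested. The block changed no other call of a main unit of a contractile gene. Over both genotypes the second unit of Tpm1 went from an adjusted p of 0.0294 to 0.0524 with the block (limma). No contractile gene was called under any alternative on loss of CIZ1, for the interaction or on doxycycline, and on loss of CIZ1 in primary cells all 10 differences stayed below 0. In adapted cells, for the interaction and on doxycycline the sign turned in 15 of 108, 27 of 190 and 18 of 79 gene values. The counts of the contractile apparatus list called lower ran from 0 to 21 in WT, 0 to 23 in CIZ1 null and 27 to 36 over both genotypes, those of transcriptional control from 0 to 7, 0 to 6 and 6 to 9, and those of TGF-beta from 1 to 8, 0 to 7 and 5 to 9. The 2 transcriptional control genes called higher over both genotypes became 0 to 2. There were 3 samples a group and no read counts, and low values, such as those of Myocd and of Myh11 in most adapted lines, rest on few reads.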
